A study of Homo sapiens with 46 samples.

Results

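The genes described here are 28 genes of cholesterol and fatty acid synthesis that are under the control of the sterol regulatory element-binding proteins (SREBPs). They were listed by name as genes of this pathway, with earlier results of these data known. All 28 were found among the 62756 genes in the count table. By role they comprise 7 genes of the mevalonate arm, 11 genes of the squalene and sterol arm, 5 genes of SREBP control and sterol transport, and 5 genes of fatty acid synthesis and desaturation. All 28 had enough counts to be among the 21484 genes tested.

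The cells were DLD-1, a human colorectal adenocarcinoma line that grows attached, kept in medium with fetal bovine serum. Total RNA was sequenced after ribosomal RNA removal in 46 libraries from 12 groups, which were 4 cell lines each at 0, 16 and 96 h of auxin. Parental DLD-1 cells carry no lamin tag by their label. The other lines carry an auxin-inducible degron (AID) on lamin A/C (the LAC line), lamin B1 (the LB1 line) or lamin B2 (the LB2 line), which are the filament proteins of the nuclear lamina. Auxin was used at 1 mM, dissolved in DMSO, in all lines including the parental one. In every line the only libraries without auxin are those at 0 h. Auxin and time in culture therefore cannot be told apart in a change from 0 h. The auxin system also needs the plant protein TIR1, and where the cells have it from is not given in the sources used here, nor is whether the parental cells match the tagged lines in all but the tag. A degron removes protein rather than mRNA, so these counts do not measure lamin depletion. Each replicate was 1 well of a plate, so the p-values measure the spread between wells. Groups held 4 libraries, except LB1 at 0 h and LB2 at 96 h with 3. Whether each tagged line is a single clone, and whether the 0 h wells received DMSO, is not given in the sources used here.

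As background, cells build cholesterol from acetyl-CoA through mevalonate, farnesyl diphosphate, squalene and lanosterol. The enzymes are switched on together by SREBP-2 when membrane sterol is low: SCAP carries the SREBPs out of the endoplasmic reticulum, and INSIG1, itself a target, holds SCAP back when sterol is plentiful. SREBP-1 acts mainly on fatty acid synthesis, where acetyl-CoA carboxylase (ACACA) and fatty acid synthase (FASN) make saturated chains. Stearoyl-CoA desaturase (SCD) then desaturates these chains, and FADS1 and FADS2 are further fatty acid desaturases.

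Library totals ran from 479446 to 37309421 assigned counts with a median of 11533218, and 6 libraries held fewer than 5000000. Libraries of very low depth carry more counting error. On unscaled totals, 3 counts are 6.26 CPM (counts per 1000000 counts of the library) in the least deep library and 0.0804 CPM in the deepest. All other CPM use library totals over the genes tested, scaled by edgeR's TMM factors. LAC at 0 h replicate 1 and LB2 at 0 h replicate 1 stood apart from the other libraries of their groups in the same direction, with high FASN, MVD, LSS, MVK, CYP51A1, EBP, SREBF1, SREBF2 and SCAP. Calls of the 28 genes that rest on them are given with and without them. Differences of the tagged lines also followed the GC content of genes: over 8547 well-expressed genes, Spearman's rho between GC content and log2 difference was 0.48 for LAC against parental at 0 h and -0.63 for LAC at 96 h against 0 h, compared with 0.03 for the parental line at 96 h against 0 h. For LB2 it was -0.46 at 16 h against 0 h and -0.39 against parental at 16 h, and for LB1 it was 0.24 at 16 h against 0 h and -0.32 against parental at 96 h. Its part in the results was not tested beyond the values given with the GC and length trend removed. Counts under that or another alternative setting are given without the share of all genes called under it. Of the 9 epithelial markers, 8 or 9 had any count in each group, and the list summed to between 5416 and 12534 CPM in every library. That sum does not show that each marker was expressed. The 13 markers of fibroblasts, immune cells, endothelium and hepatocytes summed to between 2.18 and 24.3 CPM in every library.

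Promoters carry the sequences through which SREBPs act, usually a sterol regulatory element beside binding sites for the cofactors NF-Y (the CCAAT box) and Sp1 (the GC box). RefSeq promoter windows on GRCh38.p14, from 250 bases before to 50 bases after an annotated start, were found for 24 of the 28 genes, in 32 windows, and ACAT2, FDFT1, SQLE and FASN had none in that table. The element spelled TCACNCCAC, searched on both strands, was found in 1.13% of all 35116 windows and in 1 of the 32, that of SREBF2. CCAAT, on either strand, was found in 34.6% of all windows and in 22 of the 32 (68.8%). GGGCGG was found in 45.0% of all windows and in 28 of the 32 (87.5%). By gene, 19 of the 24 had a window with CCAAT, against 39.7% of the 27305 genes in the table. These matches are a description, and a motif that is not matched may be spelled otherwise or lie outside the window. The windows of 5 genes on which the results below turn, or which hold the element, are shown with CCAAT (read ATTGG on the other strand) and the sterol element in capitals; where a gene had several windows, the one with most CCAAT matches is shown.
SREBF2 (chr22:41832855-41833154, plus strand): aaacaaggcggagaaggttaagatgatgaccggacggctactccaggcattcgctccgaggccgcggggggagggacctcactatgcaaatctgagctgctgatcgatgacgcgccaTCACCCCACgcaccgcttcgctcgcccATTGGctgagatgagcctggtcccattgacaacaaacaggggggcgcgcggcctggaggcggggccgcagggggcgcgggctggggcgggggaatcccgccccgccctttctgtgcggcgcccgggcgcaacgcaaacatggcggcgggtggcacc
INSIG1 (chr7:155297628-155297927, plus strand): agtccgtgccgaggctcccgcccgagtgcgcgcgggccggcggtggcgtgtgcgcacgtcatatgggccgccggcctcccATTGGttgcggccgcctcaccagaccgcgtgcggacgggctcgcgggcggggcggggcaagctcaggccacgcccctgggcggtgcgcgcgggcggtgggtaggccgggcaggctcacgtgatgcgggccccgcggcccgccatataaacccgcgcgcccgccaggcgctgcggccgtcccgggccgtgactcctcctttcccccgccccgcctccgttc
HMGCS1 (chr5:43313363-43313662, minus strand): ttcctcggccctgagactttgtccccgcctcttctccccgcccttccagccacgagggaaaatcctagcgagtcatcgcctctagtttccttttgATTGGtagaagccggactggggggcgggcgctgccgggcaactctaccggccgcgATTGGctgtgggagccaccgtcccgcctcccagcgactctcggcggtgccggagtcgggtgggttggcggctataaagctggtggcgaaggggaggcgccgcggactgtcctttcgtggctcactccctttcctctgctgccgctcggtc
STARD4 (chr5:111512486-111512785, minus strand): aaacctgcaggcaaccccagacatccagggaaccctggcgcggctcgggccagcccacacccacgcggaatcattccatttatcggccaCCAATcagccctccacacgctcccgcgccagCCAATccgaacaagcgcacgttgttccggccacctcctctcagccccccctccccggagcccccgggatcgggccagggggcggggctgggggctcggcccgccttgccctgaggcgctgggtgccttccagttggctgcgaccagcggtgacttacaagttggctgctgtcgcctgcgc
SCD (chr10:100346983-100347282, plus strand): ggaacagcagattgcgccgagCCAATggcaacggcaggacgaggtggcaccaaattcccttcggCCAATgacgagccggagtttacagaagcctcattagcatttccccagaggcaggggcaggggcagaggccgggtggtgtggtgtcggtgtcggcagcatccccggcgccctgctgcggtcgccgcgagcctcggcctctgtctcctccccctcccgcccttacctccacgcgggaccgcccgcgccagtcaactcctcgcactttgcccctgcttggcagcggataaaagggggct
In the SREBF2 window the sterol element lies from -133 to -125 relative to the start and is followed by an inverted CCAAT from -106 to -102. INSIG1 has 1 inverted CCAAT from -170 to -166 and 6 GC boxes. HMGCS1 has 2 inverted CCAAT boxes, at -155 to -151 and -100 to -96, and STARD4 has 2 in the forward sense, at -161 to -157 and -130 to -126. SCD has 2 forward CCAAT boxes at -229 to -225 and -186 to -182.

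In parental cells before auxin, SCD, FASN and MSMO1 had the highest levels per length of the 28 genes. On the scale of CPM per kilobase of exon length, SCD was at 211 ± 22.3 (SD, n = 4), FASN at 152 ± 5.96 and MSMO1, the methyl sterol oxidase, at 120 ± 4.08. FDFT1 (squalene synthase) followed at 48.3 ± 1.87. The ranges of these 4 did not overlap with that of the next gene in the order. From SREBF2 at 39.6 ± 2.20 down to SC5D at 14.3 ± 1.76, most neighbours in the order overlapped. FADS1 at 1.26 ± 0.158 and FADS2 at 1.25 ± 0.258 were lowest and overlapped each other.

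On GRCh38, SCD (ENSG00000099194.6) lies on chromosome 10 from 100347233 to 100364826 on the plus strand. INSIG1 lies on chromosome 7 from 155297776 to 155310235 on the plus strand. HMGCS1 lies on chromosome 5 from 43287470 to 43313512 on the minus strand. MSMO1 lies on chromosome 4 from 165327667 to 165343164 on the plus strand. STARD4 lies on chromosome 5 from 111496033 to 111512590 on the minus strand. FASN lies on chromosome 17 from 82078338 to 82098294 on the minus strand. All 6 are protein-coding.

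Across the 12 groups, most genes had their highest mean in the parental or LB1 line. For 9 genes the highest group mean was parental at 0 h and for 8 it was LB1 at 0 h, while 9 genes had their lowest mean in LAC at 0 h. FADS2 ranged most, 3.57-fold between 6.48 ± 1.78 CPM in LB2 at 0 h and 23.1 ± 3.23 CPM in parental at 16 h. SCD ranged 3.37-fold, from 328 ± 39.6 CPM in LAC at 16 h to 1108 ± 117 CPM in parental at 0 h, and INSIG1 3.17-fold, from 52.4 ± 16.5 CPM in LAC at 0 h to 166 ± 9.45 CPM in LB1 at 0 h. NSDHL and PMVK ranged least, 1.46-fold and 1.47-fold. Taking in each library the median over a set of genes of the log2 level relative to the parental mean at 0 h, the mevalonate arm averaged -0.57 ± 0.06 (SD, n = 4) in parental at 96 h and -0.57 ± 0.19 in LAC at 0 h, whereas the fatty acid arm averaged 0.09 ± 0.08 and -0.01 ± 0.22 in those groups.

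**Figure D1:**
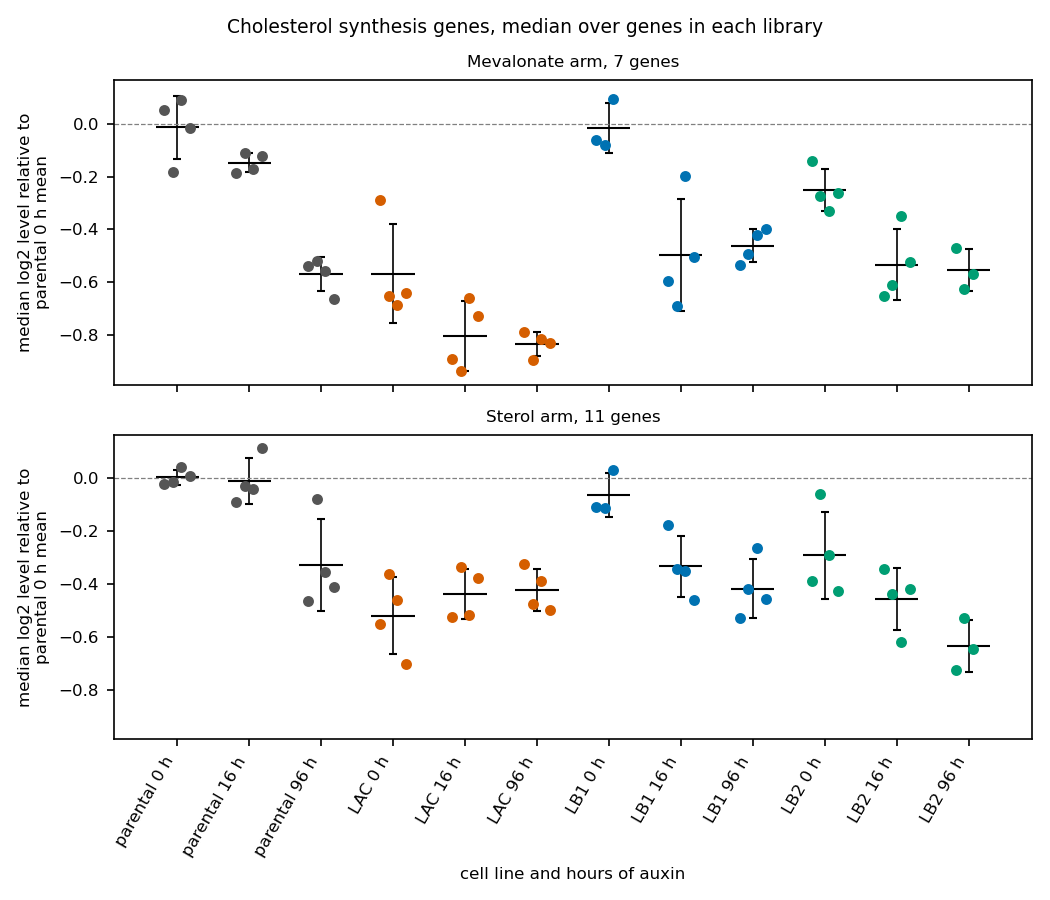
Median over the 7 mevalonate genes (top) and 11 sterol genes (bottom) of the log2 level relative to the parental mean at 0 h, for each library (points) by cell line and hours of auxin; black bars are group means and SD. The mevalonate median fell below -0.5 in all 4 parental libraries at 96 h, and LAC libraries were below 0 at all 3 times in both panels.

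**Figure D2:**
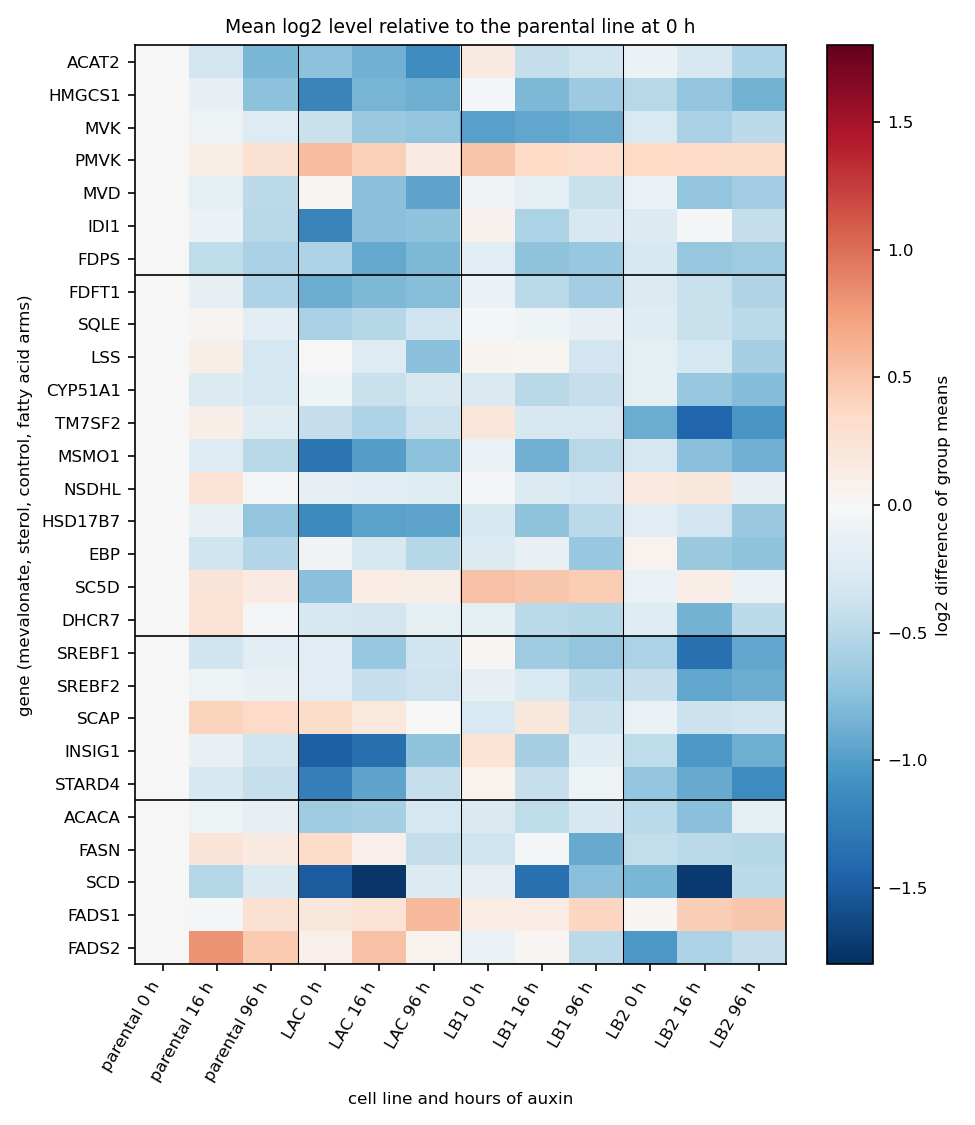
Mean log2 level of each of the 28 genes (rows, by arm) in each group (columns) relative to the parental line at 0 h; blue is lower and red is higher, on a linear scale of log2 differences. The darkest blue cells are SCD in LAC at 0 and 16 h and in LB2 at 16 h, and the strongest red cell is FADS2 in parental at 16 h.

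Before any auxin, the LAC line already had lower levels of 13 of the 28 genes than the parental line, and none was higher. The lower genes spanned the mevalonate arm (ACAT2, HMGCS1, IDI1, FDPS), the sterol arm (FDFT1, SQLE, MSMO1, HSD17B7, SC5D), control and transport (INSIG1, STARD4) and the fatty acid arm (ACACA, SCD). In this comparison 7.08% of all genes tested were lower and 15.8% were called in either direction, by edgeR's quasi-likelihood test at a Benjamini-Hochberg adjusted p under 0.05. The median log2 difference was -0.42 over the 28 genes and -0.06 over all genes. For 12 of the 28 genes every LAC library was below every parental one, which held for 8.28% of all genes tested. In bulk RNA, fewer cells of a type and less RNA per cell cannot be told apart.

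SCD, the desaturase that makes oleate, had 950, 1221, 1096 and 1163 CPM in the 4 parental libraries at 0 h and 303, 518, 432 and 338 CPM in the 4 LAC libraries. The groups were far from overlapping, and the log2 difference was -1.48 ± 0.15 (SE; edgeR adjusted p = 6.65e-10). INSIG1 had 141, 139, 133 and 148 CPM in parental and 71.2, 59.9, 44.8 and 33.7 CPM in LAC cells, a log2 difference of -1.44 ± 0.14 (edgeR adjusted p = 3.09e-10). Every LAC library was below every parental one for both genes.

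MSMO1, which removes the methyl groups at carbon 4 of the sterol ring, had 356, 338, 342 and 328 CPM in parental and 100.4, 205, 141 and 122 CPM in LAC cells. HMGCS1, the cytosolic HMG-CoA synthase, had 234, 267, 234 and 240 and 65.1, 151, 119 and 112 CPM. STARD4, a carrier of cholesterol between membranes, had 160, 142, 152 and 150 and 48.9, 91.3, 59.9 and 62.3 CPM. In all 3 genes the highest LAC library was replicate 2, and it remained below the lowest parental library. Their log2 differences were -1.25 ± 0.16, -1.11 ± 0.16 and -1.18 ± 0.14 in that order (edgeR, largest adjusted p = 1.5e-06). HSD17B7, a sterol ketoreductase, and IDI1, the isopentenyl diphosphate isomerase, were lower by a like amount, -1.12 ± 0.13 and -1.10 ± 0.19. HSD17B7 has near-identical pseudogene copies and IDI1 overlaps an antisense gene, so their counts are less certain. The smaller differences were those of FDFT1 (-0.87), ACAT2 (-0.74), ACACA (-0.62), SC5D (-0.59), SQLE (-0.57) and FDPS (-0.57).

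Without LAC at 0 h replicate 1, 14 genes were lower, 12 of them shared with the full set of libraries; SC5D was no longer called (log2 difference -0.32, edgeR adjusted p = 0.214), and TM7SF2 and MVK were added. With the GC and length trend removed, 16 genes were lower, 12 of them shared, and SQLE was no longer called.

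The LB2 line before auxin was lower than the parental line in 7 of the 28 genes, which were HMGCS1, TM7SF2, INSIG1, STARD4, ACACA, SCD and FADS2, and higher in none; 4.3% of all genes tested were lower. FADS2, the delta-6 desaturase, had 7.76, 6.18, 7.91 and 4.08 CPM against 10.5, 12.1, 16.9 and 13.5 CPM in parental cells, with no overlap (log2 difference -1.01 ± 0.20, edgeR adjusted p = 0.000454). FADS1 and FADS2 overlap on opposite strands, and whether reads were counted by strand is not given in the sources used here, so their counts may be mixed. FADS2 also shares exon sequence with FEN1 on the same strand, which counting by strand would not separate. TM7SF2, a sterol C14 reductase, had 39.4, 27.5, 22.1 and 26 CPM against 46.9, 43.5, 54.3 and 66.2 CPM, and here too all LB2 libraries were lower (-0.92 ± 0.18). TM7SF2 shares exon sequence with VPS51 on the same strand, so its counts are less certain. SCD had 701, 734, 563 and 525 CPM in LB2 at 0 h, between the LAC and parental values (-0.81 ± 0.15).

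FASN, the multienzyme that builds palmitate, was at 2426, 782, 786 and 774 CPM in the 4 LB2 libraries, with replicate 1 far above the others, and at 1387, 1419, 1490 and 1362 CPM in parental cells. Without replicate 1, 10 genes were lower, 5 of them shared: FASN (log2 difference -0.83), SREBF1 (-0.88), SREBF2 (-0.72), LSS (-0.52) and MVK (-0.56) were then called, and HMGCS1 and ACACA were not. Without parental at 0 h replicate 2, 4 genes were called.

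In the LB1 line before auxin, 1 of the 28 genes differed from the parental line, with 4.05% of all genes called. This was MVK, mevalonate kinase, with 24.6, 18.6 and 23.2 CPM against 45.1, 36.3, 49.5 and 44.2 CPM, lower in all libraries (-0.93 ± 0.22, edgeR adjusted p = 0.00522). MVK stayed lower in LB1 than in parental cells at 16 h (-0.83 ± 0.19) and at 96 h (-0.68 ± 0.19; -0.44 at its smallest, without parental at 96 h replicate 2, when it was no longer called). MVK overlaps MMAB, so reads of the pair may be mixed.

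**Figure D3:**
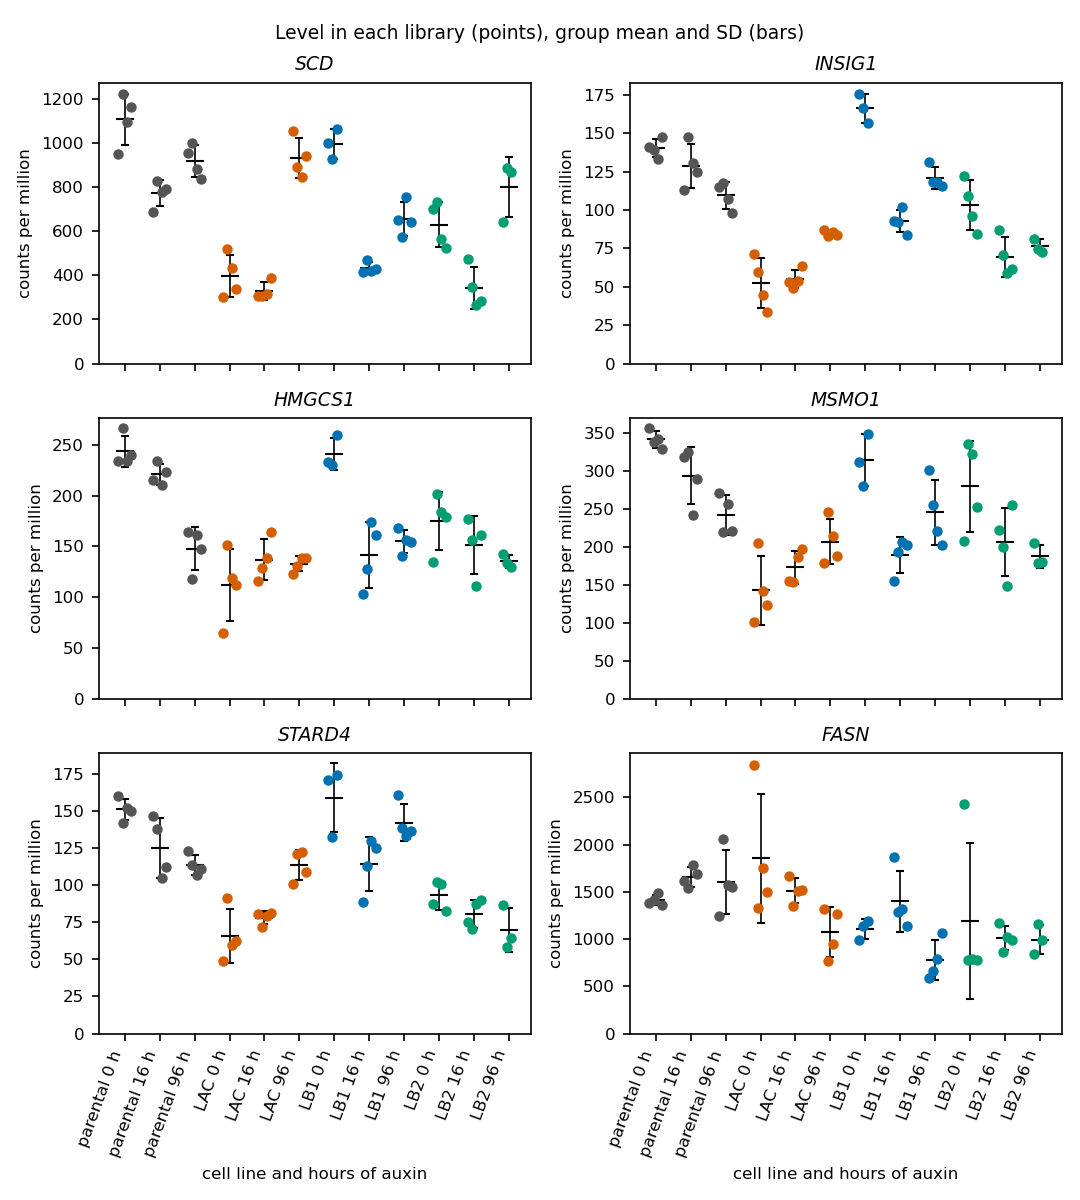
CPM of SCD, INSIG1, HMGCS1, MSMO1, STARD4 and FASN in each library (points), with group means and SD (bars), by cell line and hours of auxin; all axes start at 0. The SCD mean is lowest at 16 h in every line, and in FASN replicate 1 of LAC and of LB2 at 0 h lie far above their groups.

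In the parental line, which has no degron, several cholesterol synthesis enzymes had lower levels at 96 h of auxin than at 0 h. No library was kept without auxin for that time, so auxin and time in culture cannot be told apart. At 96 h against 0 h, 6 genes fell and none rose, where 3.84% of all genes tested fell: ACAT2, HMGCS1, FDPS, FDFT1, MSMO1 and HSD17B7. ACAT2, the thiolase that starts the pathway, went from 86.5, 76.5, 90.6 and 87.2 CPM to 51.8, 45.3, 50.1 and 45.1 CPM (-0.82 ± 0.13, edgeR adjusted p = 4.84e-05). HMGCS1 was at 164, 118, 162 and 148 CPM at 96 h, all below the values at 0 h (-0.72 ± 0.16). HSD17B7 was at 27.2, 25.6, 23 and 25.3 CPM, down from 40.7, 38.7, 44.7 and 41.6 CPM (-0.71 ± 0.13). FDPS, which makes farnesyl diphosphate, and FDFT1 fell by 0.59 and 0.56 on the log2 scale. MSMO1 fell by 0.50, with an edgeR adjusted p of 0.0439, and lost its call when any 1 of 7 of the 8 libraries was left out. None of the 5 fatty acid genes passed the test at 96 h; FASN was at 0.18 and SCD at -0.27. The median change was -0.24 over the 28 genes and -0.03 over all genes; after GC and length correction 10 genes fell. ACAT2 overlaps TCP1, so reads of the pair may be mixed.

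At 16 h in the parental line, FDPS fell (-0.45 ± 0.11), SCD fell (-0.52 ± 0.15, from 950, 1221, 1096 and 1163 CPM to 690, 828.8, 778 and 792 CPM) and FADS2 rose (0.82 ± 0.18), where 9.01% of all genes were called. FADS2 had 27.4, 19.5, 22.7 and 22.9 CPM at 16 h, all above the 10.5, 12.1, 16.9 and 13.5 CPM at 0 h. FDPS and SCD were no longer called without parental at 0 h replicate 4 or without parental at 16 h replicate 1, which left FADS2 alone. The 3 calls among 28 genes are a share close to that of all genes.

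In the LB1 line at 16 h against 0 h, 6 genes fell and none rose, where 0.517% of all genes tested fell: ACAT2, HMGCS1, FDPS, MSMO1, INSIG1 and SCD. SCD went from 1003, 928 and 1064 CPM to 416, 470, 421 and 429 CPM, with a log2 change of -1.20 ± 0.16 (edgeR adjusted p = 7.67e-06). INSIG1 went from 176, 167 and 157 CPM to 92.8, 92.5, 102 and 84.1 CPM (-0.84 ± 0.15). The groups did not overlap for either gene. HMGCS1 had 103, 128, 174 and 162 CPM at 16 h and 233, 230 and 260 CPM at 0 h (-0.77 ± 0.17), and MSMO1 changed by -0.73 ± 0.17. Only INSIG1 and SCD among the 6 held under every alternative run for this comparison; the count was 3 without LB1 at 0 h replicate 1 or at 16 h replicate 1, and 2 without LB1 at 0 h replicate 3 or at 16 h replicate 2. With the GC and length trend removed 12 genes fell, the 6 included. The median change was -0.22 over the 28 genes and -0.01 over all genes.

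At 96 h in LB1, ACAT2, HMGCS1, FDPS, FDFT1 and SCD were lower than at 0 h, with log2 changes from -0.48 to -0.64, where 2.12% of all genes fell. The count was 0 without LB1 at 0 h replicate 3, 1 without LB1 at 0 h replicate 1 or at 96 h replicate 2, and 3 without LB1 at 96 h replicate 1 or 4. From 16 h to 96 h, INSIG1 (0.38 ± 0.14) and SCD (0.59 ± 0.15) rose and FASN (-0.85 ± 0.24), EBP, SCAP and FADS2 fell, where 20.4% of all genes were called, so the share among the 28 genes is close to that of all genes. The count was 3 without LB1 at 16 h replicate 1 or 2, and 2 without LB1 at 96 h replicate 1 or 2. FASN had 1867, 1282, 1315 and 1135 CPM at 16 h and 592, 663, 784 and 1069 CPM at 96 h.

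In the LB2 line, 4 genes fell at 16 h and none rose, where 0.377% of all genes fell: FDPS, SREBF1, INSIG1 and SCD. SCD went from 701, 734, 563 and 525 CPM to 475, 349, 268 and 284 CPM without overlap (-0.86 ± 0.15, edgeR adjusted p = 0.000402). INSIG1 had 87.1, 70.6, 58.7 and 61.3 CPM at 16 h against 123, 109, 96.4 and 84.6 CPM at 0 h, which overlapped in 1 library (-0.53 ± 0.14). The SREBF1 change of -0.85 was -0.45 and not called without LB2 at 0 h replicate 1. The count was 1 without LB2 at 0 h replicate 1 or 3, or at 16 h replicate 2 or 4; SCD remained in each. LB2 at 16 h replicate 3 is the library with 479446 counts, and without it the same 4 genes were called. Fitted on the LB2 libraries of those times alone, none of the 28 was called.

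At 96 h the genes lower than at 0 h in LB2 were ACAT2, MSMO1, HSD17B7 and EBP (log2 changes from -0.48 to -0.83), where 1.6% of all genes fell. EBP, the sterol isomerase, was at 100.3, 46.9, 41.8 and 41.5 CPM at 0 h and 29.6, 33.7 and 29.3 CPM at 96 h; without LB2 at 0 h replicate 1 the change was -0.49 and was not called. Leaving out any 1 other library left between 0 and 1 of the 4 calls, and the fit on the LB2 libraries of those times alone gave 0. From 16 h to 96 h, SCD rose to 644, 889 and 868 CPM (1.20 ± 0.16, edgeR adjusted p = 2.54e-06) and ACACA rose by 0.50, where 2.5% of all genes were called; ACACA was lost without LB2 at 16 h replicate 2, 3 or 4 or at 96 h replicate 2 or 3, and with the replicate block.

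The 3 tagged lines were also set against the parental line at the same time of auxin, a comparison added after the levels were seen. At 16 h, the LAC line had 14 lower genes (2.12% of all genes), LB1 had 8 (2.79%) and LB2 had 13 (5.09%), and none of the 28 was higher in any of the 3. The 3 comparisons use the same parental libraries. For SCD, at 690, 828.8, 778 and 792 CPM in parental cells, the log2 difference was -1.23 for LAC, with -0.83 for LB1 and -1.15 for LB2. INSIG1 differed by -1.23, -0.48 and -0.86, and HMGCS1 by -0.69, -0.64 and -0.51. DHCR7, the last reductase of the pathway, differed by -0.59, -0.75 and -0.88 in the same order. In LB2 the control genes SREBF1, SREBF2 and SCAP were lower, with log2 differences of -0.96 ± 0.24, -0.83 ± 0.21 and -0.77 ± 0.20 (SE, edgeR, largest adjusted p = 0.00695). Their GC contents are 62.9%, 57.0% and 58.3%. No value with the GC trend (rho -0.39 in this comparison) removed is given for them here. SREBF2 and SCAP were not called there without LB2 at 16 h replicate 4. Without LB2 at 16 h replicate 3, the least deep library, HMGCS1 (-0.45), SQLE and FASN were no longer called in LB2, and FDPS was added. Medians over the 28 genes were -0.52, -0.28 and -0.51, against 0.03, 0.01 and 0.02 over all genes. The LAC count was 8 without parental at 16 h replicate 3, and the LB1 count was 4 without LB1 at 16 h replicate 1.

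How far these 16 h differences exceed those already present at 0 h was tested as the difference of the changes, and no gene of the 28 passed in any line. DESeq2 also called 0 in each, and edgeR called 0.116%, 0.0279% and 0.00465% of all genes at the adjusted p. At an unadjusted edgeR p under 0.05 there were 3 of the 28 for LAC, 7 for LB1 and 3 for LB2. The share of all genes at the unadjusted p is not given, so these counts cannot be set against those percentages. For SCD the differences of the changes at 16 h were 0.24 ± 0.21 for LAC, -0.68 ± 0.21 for LB1 and -0.34 ± 0.21 for LB2.

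In the LAC line, auxin for 96 h was followed by higher SCD, INSIG1 and STARD4, which were among the genes lowest against the parental line before auxin. Both comparisons use the same LAC libraries at 0 h, so a low value there enters both and they are not independent. At 16 h against 0 h, 1 gene rose (SC5D, 0.71 ± 0.19), where 1.78% of all genes were called, and it was lost without LAC at 0 h replicate 1, 3 or 4 or any of the 4 LAC libraries at 16 h; without LAC at 0 h replicate 2, 7 genes were called. At 96 h, 5 genes rose and 4 fell, where 15.4% of all genes were called, 6.74% higher and 8.64% lower. SCD had 305, 305, 317 and 387 CPM at 16 h and 1055, 893, 845 and 940 CPM at 96 h, against 303, 518, 432 and 338 CPM at 0 h. The libraries at 96 h were all above those at 0 and 16 h, and the change from 0 h was 1.23 ± 0.15 (edgeR adjusted p = 6.04e-08). INSIG1 had 87, 83.4, 85.4 and 83.6 CPM at 96 h (0.71 ± 0.14) and STARD4 101, 121, 122 and 109 CPM (0.77 ± 0.14). Both were above all LAC libraries at 0 h and 16 h. SC5D, a sterol desaturase, and MSMO1 rose by 0.69 ± 0.19 and 0.53 ± 0.16.

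The genes that fell in LAC at 96 h were MVD (-1.14 ± 0.28), FASN (-0.79 ± 0.24), LSS (-0.78 ± 0.21) and ACAT2 (-0.37 ± 0.13). MVD, mevalonate diphosphate decarboxylase, was at 105, 26.2, 41 and 32.7 CPM at 0 h, where replicate 1 was far above the others, and at 24.7, 19, 20.9 and 24 CPM at 96 h. Without LAC at 0 h replicate 1, 3 genes were called, all of them higher: SCD (1.13), INSIG1 (0.88) and STARD4 (0.67). MVD was then at -0.56, FASN at -0.49 and LSS at -0.48, none of them called. With the GC and length trend removed, 7 of the 9 calls remained, MSMO1 and FASN were lost and 2 other genes were called. Fitted on the LAC libraries of those times alone, 2 of the 28 genes were called, SCD and STARD4.

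The difference between the LAC and the parental change at 96 h was called for 8 genes, all higher in LAC, where 3.1% of all genes tested were called higher and 4.3% lower. These were SCD (1.497 ± 0.21), STARD4 (1.18 ± 0.20), INSIG1 (1.07 ± 0.19), MSMO1 (1.03 ± 0.23), HMGCS1 (0.96 ± 0.22), HSD17B7 (0.88 ± 0.19), IDI1 (0.87 ± 0.26) and FDFT1 (0.66 ± 0.16). Of these, HMGCS1, HSD17B7, IDI1 and FDFT1 did not pass the test in LAC (0.23, 0.17, 0.38 and 0.10), and in the parental line HMGCS1, HSD17B7 and FDFT1 fell while IDI1 was at -0.49. All 8 were among the 13 lower in LAC at 0 h, and both comparisons use the same 0 h libraries, so the values are not independent. Without LAC at 0 h replicate 1, 7 of the 8 were called and IDI1 was not (0.68); after GC and length correction 12 genes were called, the 8 included. The same difference for LB1 and LB2 was called for 0 of the 28 genes by edgeR and by DESeq2, where edgeR called 1.04% and 0.368% of all genes. At an unadjusted edgeR p under 0.05 there were 2 and 3 genes, a threshold at which the share of all genes is not given.

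At 96 h of auxin no difference between the LAC and parental lines passed the test. None of the 28 genes was called between them by edgeR or DESeq2, where 1.36% of all genes were called at the adjusted p. Of the 28, 7 had an unadjusted edgeR p under 0.05, and 26 differences were still negative with a median of -0.20. The shares of all genes by sign and at the unadjusted p are not given, so neither count is read as particular to the 28. Spearman's rho between GC content and this difference was -0.47 over 8547 genes. Without the libraries under 5000000 counts, 4 genes were called. SCD was at 1055, 893, 845 and 940 CPM in LAC and 955, 1000, 884 and 838 CPM in parental cells, which overlapped (log2 difference 0.02 ± 0.15). STARD4 was at 101, 121, 122 and 109 and 123, 113, 107 and 111 CPM, also overlapping. INSIG1 remained below the parental range, at 87, 83.4, 85.4 and 83.6 against 115, 118, 108 and 98 CPM, with a difference of -0.37 ± 0.14 that did not pass (edgeR adjusted p = 0.221).

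**Figure D4:**
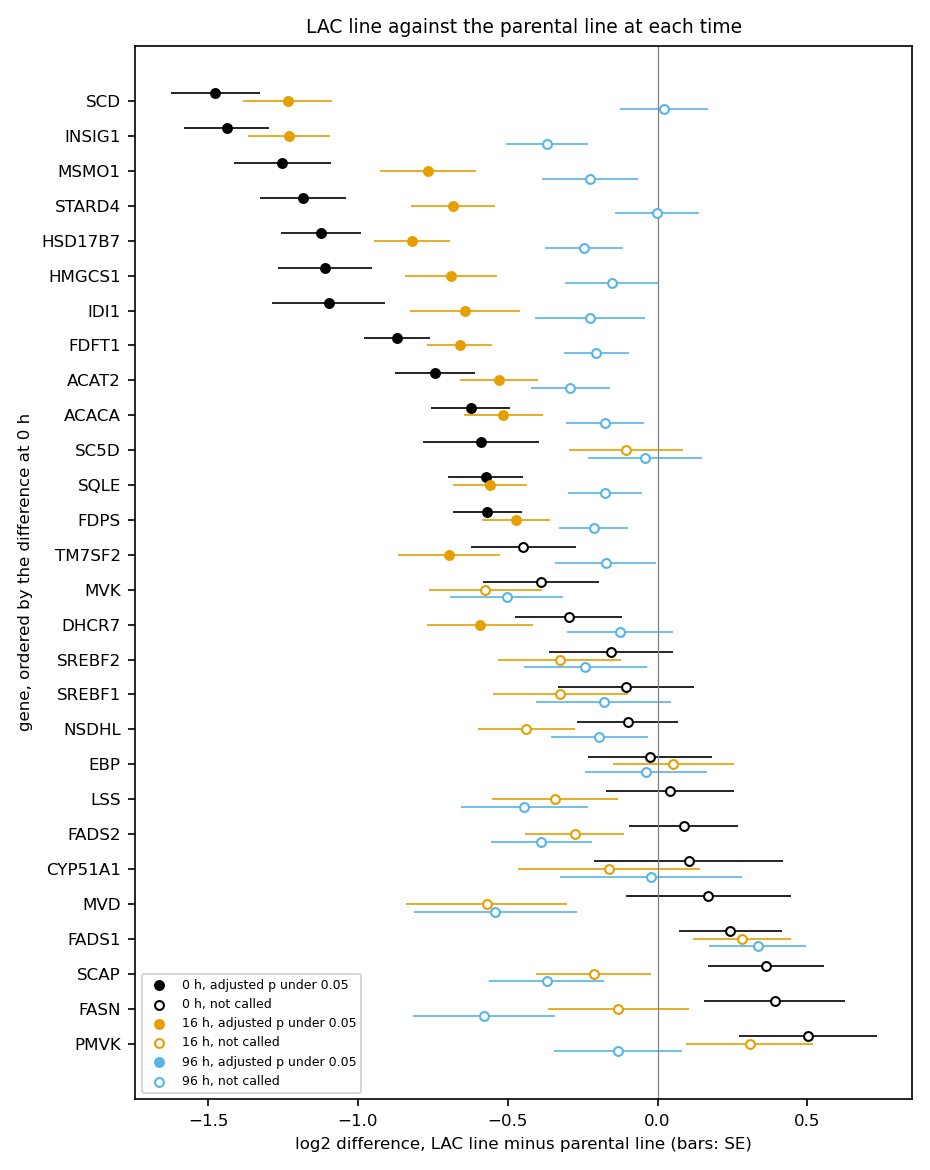
Log2 difference between the LAC and the parental line for each of the 28 genes at 0, 16 and 96 h of auxin, with SE (bars); filled points have an edgeR adjusted p under 0.05. At 0 h 13 genes and at 16 h 14 genes are filled, all left of 0, and at 96 h none is filled.

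The change from 16 h to 96 h shares no 0 h library with these comparisons and was added after the levels were seen. It uses the same 16 h and 96 h libraries as the comparisons above, so it is not independent of them. Between those times SCD rose in LAC by 1.51 ± 0.15, INSIG1 by 0.63 ± 0.14 and STARD4 by 0.54 ± 0.14, where 2.05% of all genes rose; in the parental line only HSD17B7 was called (-0.57 ± 0.13), where 0.265% were, and its call was lost without parental at 16 h replicate 1, 2 or 4 or at 96 h replicate 2, 3 or 4. The LAC rise exceeded the parental change for SCD (1.26 ± 0.21, edgeR adjusted p = 0.000848) and INSIG1 (0.86 ± 0.19, edgeR adjusted p = 0.0407), where 0.121% of all genes were called. SCD held when any 1 library was left out, whereas INSIG1 was lost in 12 of those 16 cases, without parental at 16 h replicate 2 or 3, parental at 96 h replicate 1, 3 or 4, LAC at 16 h replicate 1, 2 or 3 or any LAC library at 96 h. In LB1 the corresponding difference was called for HSD17B7 alone (0.79 ± 0.18; 1.15% of all genes), and was lost without parental at 16 h or 96 h replicate 2, LB1 at 16 h replicate 1 or LB1 at 96 h replicate 2. In LB2 none was called by edgeR (0.0326% of all genes) and 1 by DESeq2. At an unadjusted edgeR p under 0.05 there were 2, a threshold at which the share of all genes is not given. By edgeR 1 was called without LB2 at 16 h replicate 1 or at 96 h replicate 1.

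**Figure D5:**
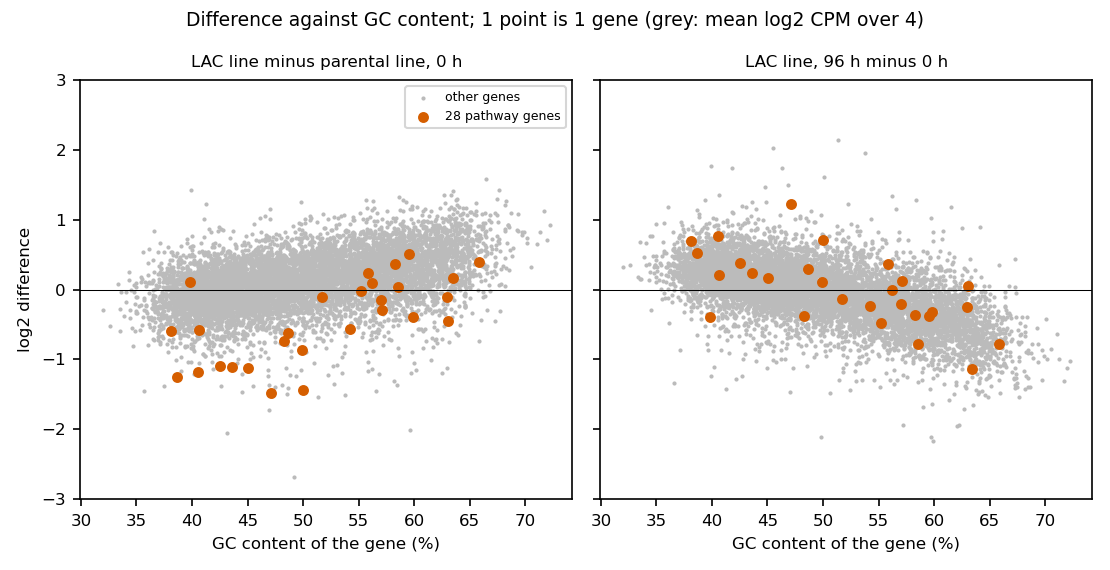
Log2 difference against the GC content of the gene, in percent, for LAC against parental at 0 h (left) and LAC at 96 h against 0 h (right); grey points are other genes and orange points the 28 genes. The grey cloud rises with GC content on the left and falls on the right, and SCD, INSIG1 and MSMO1 lie at the lower edge of the cloud on the left.

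SCD means were lowest at 16 h in every line. Group means at 0, 16 and 96 h were 1108, 772 and 919 CPM in parental, 398, 328 and 933 CPM for LAC, 998, 434 and 655 CPM for LB1, and 631, 344 and 801 CPM for LB2. The fall from 0 to 16 h passed in parental, LB1 and LB2 and not in LAC (-0.28 ± 0.15), and the rise from 16 to 96 h passed in the 3 tagged lines and not in parental (0.25 ± 0.15). That rise was tested against the parental change in each line, and passed in LAC; it was 0.34 ± 0.21 in LB1 (edgeR adjusted p = 0.416) and 0.95 ± 0.22 in LB2 (adjusted p = 0.137).

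FASN at 96 h was lower in LB1 than in the parental line (592, 663, 784 and 1069 against 1241, 2054, 1571 and 1555 CPM, -1.05 ± 0.24, edgeR adjusted p = 0.00138) with no overlap. The GC content of FASN is 65.8%, and no value with the GC trend (rho -0.32 in this comparison) removed is given for it here. In that comparison SCAP, SCD, MVK and FADS2 were lower too and ACAT2 was higher (0.47 ± 0.13), where 17.1% of all genes were called, so the share among the 28 genes is close to that of all genes. The count ran from 4 to 7 when 1 library was left out. ACACA was lower in LAC and LB2 at 0 h and 16 h, with log2 differences of -0.62 and -0.48 at 0 h, and not called in any line at 96 h. FADS2 was lower than in the parental line in LB1 at 16 h (-0.79) and 96 h (-0.93) and in LB2 at all 3 times (-1.01, -1.34 and -0.88). FADS1 passed in none of the comparisons.

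Of the control genes, SREBF2 at 96 h was lower in LB2 than in parental cells (125, 189 and 175 against 242, 356, 264 and 239 CPM, -0.75 ± 0.23), as were SCAP, INSIG1, STARD4, TM7SF2 and FADS2, where 4.03% of all genes were lower. That count of 6 was 3 without parental at 96 h replicate 2 or LB2 at 96 h replicate 3, and 2 without LB2 at 96 h replicate 1 or 2. STARD4 was lower in LB2 at all 3 times, with log2 differences of -0.69, -0.66 and -0.70. In LAC, SREBF1, SREBF2 and SCAP passed at no time against the parental line, with SREBF2 at -0.15, -0.33 and -0.24. CYP51A1, PMVK, NSDHL and FADS1 were called in none of the comparisons.

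Other genes of sterol and fatty acid synthesis or SREBP control, 24 of 25 of which were tested, were lower in LAC at 0 h for 7 genes and higher for none, with a median of -0.03, where 7.08% of all genes tested were lower. Among these 7, ACSS2, the acetyl-CoA synthetase of the cytosol, had 31.7, 38.7, 37.3 and 36.3 CPM against 55.1, 78.5, 78.2 and 97.9 CPM in parental cells (-1.09 ± 0.14, edgeR adjusted p = 1.93e-07), all LAC libraries being lower. LPIN1, a phosphatidate phosphatase, differed by -0.61. Both were still called without LAC at 0 h replicate 1, whereas ME1 and RDH11, also among the 7, were not. ACSS2 also fell in the parental line at 96 h (-0.86 ± 0.14) and in LB1 (-0.81 ± 0.15), and its change in LAC and LB2 was higher than the parental one (0.62 ± 0.19 and 0.83 ± 0.20). Those last 2 calls were each lost in most alternatives run, 16 of 26 for LAC and 17 of 25 for LB2, among them without replicate 1 of LAC or of LB2 at 0 h. The fatty acid elongase ELOVL6 rose at 96 h in the parental line (0.76) and in LAC (0.76), as did TMEM97 (0.56 and 0.55). HSD17B12, a step of fatty acid elongation, was lower in LB1 than in parental cells at 0, 16 and 96 h (-0.90, -1.20 and -1.23).

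Of 16 genes of sterol export, storage and transport, 15 were tested. In LAC at 96 h against 0 h, 4 rose and 2 fell, where 6.74% of all genes tested rose and 8.64% fell. ABCG1, a sterol exporter, had 0, 0.37, 0.318 and 0.302 CPM at 0 h and 2.66, 2.01, 1.53 and 1.17 CPM at 96 h (2.58 ± 0.66); these are few counts. LPCAT3, a phospholipid acyltransferase, and MYLIP, which degrades lipoprotein receptors, rose by 0.70 and 0.61. Without LAC at 0 h replicate 1, ABCG1, MYLIP and OSBP of the 6 were still called, and LPCAT3, LIPA and NR1H2 were not. In LB1, ABCG1 and MYLIP rose from 16 h to 96 h (3.15 and 0.68), after values at 16 h against 0 h of -2.58 and -0.48 that did not pass the test. At 96 h against 0 h they were at 0.58 and 0.20 in LB1 and did not pass it either. In the parental line at 96 h, 1 of the 15 was called, NPC2 (-0.70), which exports cholesterol from lysosomes.

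All 19 genes of fatty acid oxidation on the list were tested. CPT1A, which admits fatty acids to mitochondria, rose at 16 h in the parental line (0.58 ± 0.14), LAC (0.86 ± 0.14) and LB2 (0.73 ± 0.15), and fell from 16 to 96 h in LAC, LB1 and LB2 by 0.53, 0.56 and 0.55 on the log2 scale. At 96 h against 0 h, 0 of the 19 was called in the parental line by edgeR. There 4 had an unadjusted p under 0.05, a threshold at which the share of all genes is not given. In LAC 2 were called (PPARA at 0.75 and SLC25A20 at -0.97), a share not above the 15.4% of all genes called in LAC. Both were still called without LAC at 0 h replicate 1.

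The genes outside the 28 whose group means were most like the mean of the standardised pathway genes over the 12 groups were SLC27A1, HFE, ULK1, NOTCH3 and ACSS2, with Pearson's r of 0.90, 0.88, 0.87, 0.87 and 0.87. Among the 28 themselves r ran from -0.78 for FADS1 to 0.87 for HMGCS1. Each of the 28 is part of that mean, so these r are not comparable with those of the outside genes. The groups share lines and times, so these values describe the 12 means only.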

How the data were processed

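RNA of 46 DLD-1 libraries was sequenced in pairs of reads after ribosomal RNA removal, per the labels' protocols. The deposited values are raw counts per gene that the authors made, in a table of 62756 genes (1 further, broken line was left out). The submitters' processing notes name STAR 2.7.10a, SAMtools 1.10, deepTools 3.4.5, featureCounts 1.6.4 and DESeq2 1.40.2 and the build GRCh38; the strand setting, the treatment of reads with several matches and the annotation release are not given in the sources used here.

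Counts of all libraries were fitted together in 12 groups with edgeR 4.0.16 (TMM scaling, genes kept by filterByExpr, quasi-likelihood test, Benjamini-Hochberg adjustment over 21484 genes, threshold 0.05) in R 4.3.3. The steps were tested on simulated data. CPM are counts per 1000000 counts of the library. Log2 differences are fitted values with their SE, and log2 levels used a prior count of 2. DESeq2 1.42.0, limma 3.58.1, other scalings, a GC and length correction, a replicate block and leaving out libraries were alternatives. Levels between genes are per kilobase of exon length. No pair of replicate libraries had counts that agreed within sampling noise. Beyond the 28 genes, further lists held genes of the same pathway, sterol export and fatty acid oxidation; a few genes of the first are counted but not reported by name here. Genes named are the 28, of each further list at most the 4 called genes with the largest log2 difference in a comparison described, and the 5 genes with the most similar group means among those with a mean of at least 10 CPM. The members and lists were chosen with earlier results of these data known, and 9 of the 30 comparisons were added after the levels were seen.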

Additional observations from a re-analysis of the deposited data

Results flagged for a closer look

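In 23 of 280 groups of 4 libraries tested, each of 1 gene, a library lay far from the other 3 (its gap to the nearest exceeded Dixon's 95% limit of the range); chance gives about 1 in 20. In LAC at 0 h replicate 1 these were MVK at 52.4 CPM (others 27.8 to 29.2), FDPS at 77 CPM (others 58.5 to 60.6), CYP51A1 at 69.3 CPM (others 15.5 to 18.7), SREBF1 at 331 CPM (others 122 to 156), SREBF2 at 417 CPM (others 205 to 237) and SCAP at 228 CPM (others 122 to 133). In LB2 at 0 h replicate 1 these were MVK at 68.2 CPM (others 27.6 to 30.7), MVD at 80.9 CPM (others 28 to 35.7), LSS at 225 CPM (others 78 to 83.1), EBP at 100.3 CPM (others 41.5 to 46.9), SREBF1 at 270 CPM (others 91.7 to 117), SREBF2 at 455 CPM (others 165 to 198), SCAP at 202 CPM (others 83.2 to 95) and FASN at 2426 CPM (others 774 to 786). In parental at 0 h replicate 1 it was FDFT1 at 237 CPM (others 255 to 257). In LB1 at 16 h replicate 4 it was SQLE at 121 CPM (others 138 to 141). In parental at 96 h replicate 2 these were LSS at 128 CPM (others 81.7 to 88.3) and EBP at 55 CPM (others 29.1 to 33.3). In parental at 0 h replicate 2 it was EBP at 47.9 CPM (others 51.8 to 52.6). In LB1 at 16 h replicate 1 these were SC5D at 153 CPM (others 214 to 223) and FADS2 at 12.6 CPM (others 13.5 to 13.6). In LAC at 16 h replicate 4 it was SCD at 387 CPM (others 305 to 317). In parental at 16 h replicate 4 it was FADS1 at 14.4 CPM (others 11.7 to 12.2).

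The change differed between a tagged line and the parental line, by the test of the difference itself in edgeR, for these genes. From 0 to 96 h the log2 change was higher in LAC for HMGCS1 (0.96), IDI1 (0.87), FDFT1 (0.66), MSMO1 (1.03), HSD17B7 (0.88), INSIG1 (1.07), STARD4 (1.18) and SCD (1.497). From 16 to 96 h it was higher in LAC for INSIG1 (0.86) and SCD (1.26) and higher in LB1 for HSD17B7 (0.79).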

How the results depend on the processing

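Counts of the 28 genes called were compared between the settings, and a count is given where it moved by over 1.5 times. The cause was not tested. The shares of all genes called under each setting are not given. A setting that calls more of the 28 may thus call more of all genes. The direction of every called gene was kept under every alternative run. With the DESeq2 Wald test the counts were 4 for LAC 16 h against 0 h, 10 for LB1 16 h against 0 h, 7 for LB2 16 h against 0 h, 3 for parental 96 h against 16 h, 5 for LB1 minus parental change from 16 h to 96 h and 1 for LB2 minus parental change from 16 h to 96 h. After removal of the GC and length trend the counts were 6 for parental 16 h against 0 h, 10 for parental 96 h against 0 h, 12 for LB1 16 h against 0 h, 9 for LB1 96 h against 0 h, 8 for LB2 16 h against 0 h, 9 for LB2 96 h against 0 h, 4 for parental 96 h against 16 h and 8 for LAC 96 h against 16 h. Under it the counts were 1 for LB1 minus parental change at 16 h, 2 for LB1 minus parental change at 96 h, 2 for LB1 against parental at 0 h, 1 for LAC against parental at 96 h, 4 for LAC minus parental change from 16 h to 96 h and 6 for LB1 minus parental change from 16 h to 96 h. After that removal with the replicate number as a block (replicate block) the counts were 7 for parental 16 h against 0 h, 12 for parental 96 h against 0 h, 12 for LB1 16 h against 0 h, 9 for LB1 96 h against 0 h, 10 for LB2 16 h against 0 h, 10 for LB2 96 h against 0 h, 4 for parental 96 h against 16 h and 8 for LAC 96 h against 16 h. Under it the counts were 1 for LB1 minus parental change at 16 h, 1 for LB1 minus parental change at 96 h, 2 for LB1 against parental at 0 h, 14 for LB1 against parental at 16 h, 1 for LAC against parental at 96 h, 5 for LAC minus parental change from 16 h to 96 h, 7 for LB1 minus parental change from 16 h to 96 h and 1 for LB2 minus parental change from 16 h to 96 h. With RLE scaling the counts were 3 for LAC 16 h against 0 h, 3 for LB1 minus parental change from 16 h to 96 h and 1 for LB2 minus parental change from 16 h to 96 h. With the compared groups fitted alone the counts were 9 for parental 16 h against 0 h, 11 for parental 96 h against 0 h, 0 for LAC 16 h against 0 h, 2 for LAC 96 h against 0 h, 11 for LB1 96 h against 0 h, 0 for LB2 16 h against 0 h, 0 for LB2 96 h against 0 h and 4 for parental 96 h against 16 h. Under it the counts were 10 for LAC 96 h against 16 h, 1 for LB2 96 h against 16 h, 2 for LB1 minus parental change at 16 h, 1 for LB1 minus parental change at 96 h, 3 for LB1 against parental at 0 h, 3 for LB2 against parental at 0 h, 2 for LAC against parental at 96 h and 10 for LB1 against parental at 96 h. There the counts were 5 for LAC minus parental change from 16 h to 96 h and 7 for LB1 minus parental change from 16 h to 96 h. With scaling by library size only the counts were 2 for LAC 16 h against 0 h, 2 for LB1 96 h against 0 h, 0 for parental 96 h against 16 h, 5 for LAC 96 h against 16 h, 1 for LB2 minus parental change at 96 h, 4 for LB1 minus parental change from 16 h to 96 h and 1 for LB2 minus parental change from 16 h to 96 h. With limma voom and sample quality weights, chosen after seeing the data, the counts were 7 for parental 16 h against 0 h, 12 for parental 96 h against 0 h, 6 for LAC 16 h against 0 h, 12 for LB1 16 h against 0 h, 10 for LB1 96 h against 0 h, 7 for LB2 16 h against 0 h, 11 for LB2 96 h against 0 h and 5 for parental 96 h against 16 h. Under it the counts were 8 for LAC 96 h against 16 h, 6 for LB2 96 h against 16 h, 1 for LAC minus parental change at 16 h, 2 for LB1 minus parental change at 16 h, 14 for LAC minus parental change at 96 h, 1 for LB2 minus parental change at 96 h, 2 for LB1 against parental at 0 h and 16 for LB2 against parental at 0 h. There the counts were 13 for LB1 against parental at 16 h, 20 for LB2 against parental at 16 h, 3 for LAC against parental at 96 h, 7 for LAC minus parental change from 16 h to 96 h, 6 for LB1 minus parental change from 16 h to 96 h and 2 for LB2 minus parental change from 16 h to 96 h. Without the filter on low counts the counts were 1 for parental 16 h against 0 h, 3 for parental 96 h against 0 h, 2 for LAC 16 h against 0 h, 2 for LB1 96 h against 0 h, 2 for LB2 16 h against 0 h, 1 for LB2 96 h against 0 h, 0 for parental 96 h against 16 h and 1 for LB2 96 h against 16 h. Under it the counts were 4 for LB2 against parental at 0 h, 9 for LAC against parental at 16 h, 1 for LAC minus parental change from 16 h to 96 h and 0 for LB1 minus parental change from 16 h to 96 h. Without the libraries under 5000000 counts the counts were 0 for LAC 16 h against 0 h, 11 for LB1 16 h against 0 h, 1 for LB2 16 h against 0 h, 4 for parental 96 h against 16 h, 5 for LAC 96 h against 16 h, 2 for LB1 against parental at 0 h, 20 for LB2 against parental at 16 h and 4 for LAC against parental at 96 h. Under it the counts were 7 for LB1 minus parental change from 16 h to 96 h and 1 for LB2 minus parental change from 16 h to 96 h. Replicate numbers pair the samples only by number: 33 of 78 same-numbered pairs had a correlation of deviations over 0.1 (median 0.04), and every pair did in 2 of 21 comparisons. With the replicate number as a block, the count for LB2 96 h against 16 h was 1, and no other count moved by over 1.5 times. Leaving out 1 library at a time gave counts of 1 to 3 for parental 16 h against 0 h, 0 to 7 for LAC 16 h against 0 h, 3 to 9 for LAC 96 h against 0 h, 2 to 6 for LB1 16 h against 0 h, 0 to 5 for LB1 96 h against 0 h, 1 to 4 for LB2 16 h against 0 h and 0 to 3 for LB2 96 h against 0 h. In the same way they were 0 to 1 for parental 96 h against 16 h, 2 to 6 for LB1 96 h against 16 h, 1 to 2 for LB2 96 h against 16 h, 4 to 10 for LB2 against parental at 0 h, 8 to 13 for LAC against parental at 16 h, 4 to 8 for LB1 against parental at 16 h and 2 to 6 for LB2 against parental at 96 h. In the same way they were 1 to 2 for LAC minus parental change from 16 h to 96 h, 0 to 1 for LB1 minus parental change from 16 h to 96 h and 0 to 1 for LB2 minus parental change from 16 h to 96 h. Of 4 reversed values of single genes that the all-library fit did not call, CYP51A1 was at 0.76 for the LAC minus parental change at 96 h and -0.62 for LAC against parental at 0 h with voom and quality weights, and SREBF1 was at 0.50 for the LAC minus parental change at 96 h with the GC and length trend removed, and at 0.50 with the block added. Depth limits the 6 libraries under 5000000 counts, where low genes such as ABCG1 rest on few counts.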
